A study of Mus musculus with 18 samples.

Results

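Bulk RNA sequencing was compared between endothelial cells (ECs, which form the inner lining of vessels) of implanted breast tumours that received cGAMP and those that received phosphate-buffered saline (PBS). The 6 libraries, 3 with cGAMP and 3 with PBS, were taken by the tumour type and treatment in their labels, out of 18 libraries in the series. The other 12 libraries, from normal mammary fat pad and from tumours that arose in MMTV-PyMT mice, entered the estimate of the spread between replicates and the comparison of effects between tissues. All 6 libraries came from wild-type female mice of the FVB strain, collected 3 h after the injection. Tumours were grown from tumour cells of MMTV-PyMT mice, which carry a viral oncogene driven in the mammary epithelium. These cells had been trypsinised to remove fibroblasts, expanded in culture, mixed with Matrigel and placed in the mammary fat pad, so the tumour cells carried the oncogene and the ECs of the host did not. The agonist was 3′3′-cGAMP, given into the tumour, and controls received the same volume of PBS by the same route. Living cells that were negative for CD45 and positive for CD31 were sorted, and the study states 3 mice per group in a legend. The labels do not say that replicates came from separate animals, so p-values measure the spread between these samples.

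cGAMP is a cyclic dinucleotide that binds STING (Tmem173), an adaptor of the endoplasmic reticulum. In mammalian cells the enzyme cGAS makes a related molecule when it meets DNA in the cytosol. Bound STING recruits the kinase TBK1, which phosphorylates the transcription factor IRF3, and it also activates NF-kB. Type I interferon then acts through its receptor, JAK kinases and a complex of STAT factors and IRF9 that binds the interferon-stimulated response element (ISRE) in promoters. ECs carry this pathway, and in tumours they control which leukocytes enter the tissue.

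The promoters of 4 genes among the largest rises are shown because they hold that element. Each runs from 250 bases before to 50 bases after the start of the gene, is 300 bases long and comes from RefSeq (GRCm38.p6). The sequence is written 5′ to 3′ on the strand of the gene. Capitals mark each match to a core of the ISRE, which is GAAA, any 2 bases and GAAA again, or on the other strand TTTC, any 2 bases and TTTC. Rsad2 lies at chr12:26456403-26456702 on the minus strand, with a match that begins 120 bases before the start. Cxcl10 lies at chr5:92348840-92349139 on the minus strand, with a match 213 bases before the start. Ifit3 lies at chr19:34583279-34583578 on the plus strand, with matches 156 and 122 bases before the start. Ifit1 lies at chr19:34640639-34640938 on the plus strand, with matches 104 and 85 bases before the start.
Rsad2: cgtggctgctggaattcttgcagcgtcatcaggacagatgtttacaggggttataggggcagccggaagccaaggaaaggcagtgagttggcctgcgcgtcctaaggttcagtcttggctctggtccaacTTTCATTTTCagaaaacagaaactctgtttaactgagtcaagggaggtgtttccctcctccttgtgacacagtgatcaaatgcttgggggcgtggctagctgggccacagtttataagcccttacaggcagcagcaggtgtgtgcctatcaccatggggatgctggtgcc
Cxcl10: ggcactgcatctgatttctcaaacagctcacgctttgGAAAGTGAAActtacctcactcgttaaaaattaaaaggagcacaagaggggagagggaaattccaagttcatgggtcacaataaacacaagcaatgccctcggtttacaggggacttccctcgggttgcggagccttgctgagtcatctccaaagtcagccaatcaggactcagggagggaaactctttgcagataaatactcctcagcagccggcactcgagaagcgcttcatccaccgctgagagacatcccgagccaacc
Ifit3: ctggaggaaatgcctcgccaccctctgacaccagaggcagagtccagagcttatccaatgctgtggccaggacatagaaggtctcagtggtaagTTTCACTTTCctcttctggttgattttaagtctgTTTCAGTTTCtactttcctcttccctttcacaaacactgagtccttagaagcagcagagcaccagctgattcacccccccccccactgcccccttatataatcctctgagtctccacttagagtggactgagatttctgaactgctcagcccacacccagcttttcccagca
Ifit1: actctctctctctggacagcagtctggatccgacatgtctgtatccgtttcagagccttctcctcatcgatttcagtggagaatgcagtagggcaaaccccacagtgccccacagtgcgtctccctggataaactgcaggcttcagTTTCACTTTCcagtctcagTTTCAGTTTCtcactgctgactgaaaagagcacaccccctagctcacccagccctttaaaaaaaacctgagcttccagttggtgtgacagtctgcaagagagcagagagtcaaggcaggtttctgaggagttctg

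Over all RefSeq promoters of this length, 1131 of 32851 (3.44%) held the ISRE core on either strand. Of the tested genes, 9831 had a promoter in the table. The core was found in 84 of 604 genes called higher (13.9%), in 4 of 106 called lower (3.77%) and in 280 of 9121 not called (3.07%). Among the 20 largest rises, 13 were matched and 7 of them held it (53.8%). The other motif searched was a narrow form of the kappa B site, GGGA, any base and TTTCC, on both strands in the same way. It can share the letters TTTC with the ISRE core. Other forms of the kappa B site were not searched, so a promoter without this form may still hold such a site. This narrow form was found in 135 of 32851 promoters (0.411%), in 9 of the 604 genes called higher (1.49%) and in 0 of the 13 promoters among the largest rises. A match describes letters in this window and is not evidence of a bound site.

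Values are FPKM, the fragments counted on a gene for each kilobase of its length and scaled by a size factor of the library. They are given as libraries 1, 2 and 3 with PBS against libraries 1, 2 and 3 with cGAMP. The deposited scaling followed the median over genes of reads relative to their geometric mean over libraries, and not total reads. The library total it implies was 0.99, 0.964 and 1.004 times the recovered reads in PBS libraries 1 to 3. In cGAMP libraries 1 to 3 it was 0.735, 0.811 and 0.83 times. Log2 changes are differences of log2(FPKM + 1), a scale on which changes at low levels come out too small, with the standard error (SE) of the fit (n = 3 for each group). A gene "rose" or "fell" when its adjusted p-value from limma (Benjamini-Hochberg, 2-sided) was under 0.05, and was "called" when the change was also at least 2-fold. Whole reads recovered from the FPKM values ran from 9184658 to 12200551 per library over the 6 libraries.

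The sorted cells carried the defining markers of the endothelium. Pecam1, the CD31 of the sort, read 237, 268 and 221 against 386, 251 and 275 FPKM, and Cdh5, the cadherin of endothelial junctions, read 438, 502 and 391 against 782, 448 and 541 FPKM. Summed over 12 endothelial markers, the level was 1658, 1916 and 1506 in PBS libraries 1 to 3 and 2482, 1520.4 and 1849 in cGAMP libraries 1 to 3, and cGAMP library 1 was the highest of the 6. Transcripts of other cell types were also present. Epithelial and tumour cell markers (14 genes) summed to 1541, 1099 and 1388 in PBS libraries 1 to 3 and 570.3, 1171 and 1079 in cGAMP libraries 1 to 3. The lowest of these sums was that of cGAMP library 1, and 5 of the 14 genes fell (35.7%, against 18.8% of all tested genes). Fibroblast markers (8 genes) summed to 332, 298 and 306 in PBS libraries 1 to 3 and 625, 755 and 314 in cGAMP libraries 1 to 3. Of these 8 genes, 7 were highest in cGAMP library 2, and 5 rose (62.5%, against 20.3% of all tested genes).

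Leukocyte transcripts stood out in cGAMP library 2, although CD45-positive cells were removed in the sort. General leukocyte markers (10 genes) summed to 46, 37.4 and 47.6 in PBS libraries 1 to 3 and 94.6, 190.2 and 64.7 in cGAMP libraries 1 to 3. Library 2 held the highest value of 8 of these 10 genes and 2.39 times the mean of the other cGAMP libraries. Macrophage and monocyte markers (18 of 20 listed) summed to 208, 160.4 and 239 in PBS libraries 1 to 3 and 182, 634 and 208 in cGAMP libraries 1 to 3, with 17 of 18 highest in library 2 and 3.25 times the mean of the other cGAMP libraries. Ptprc, which encodes CD45 itself, read 0.964, 0.37 and 1.09 against 1.8, 9.24 and 1.7 FPKM. C1qa, a complement subunit made by macrophages, read 11.4, 6.52 and 25.2 against 13.8, 98 and 18.9 FPKM, and Trac, the constant region of the T cell receptor alpha chain, read 1.72, 1.45 and 3.36 against 1.79, 20.6 and 1.8 FPKM. Neutrophil and B cell markers were mostly outside the table (2 of 11 and 2 of 8 listed), and both sums were highest in library 2. T and NK cell markers (10 of 18 listed) summed to 15.6, 11.2 and 18.8 in PBS libraries 1 to 3 and 165, 209.8 and 141 in cGAMP libraries 1 to 3, a sum that includes Ccl5, which was higher in every cGAMP library than in any PBS library. In bulk samples, fewer cells of a type and less RNA per cell cannot be told apart.

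**Figure D1:**
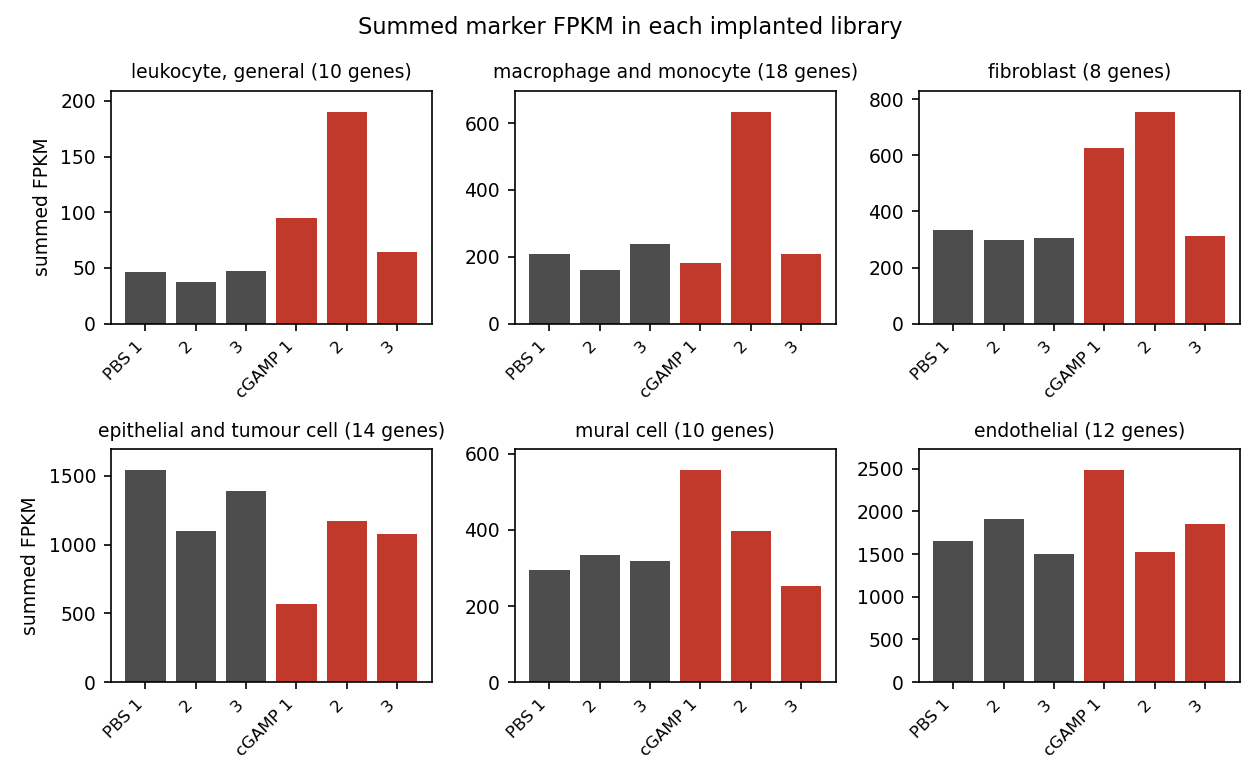
Summed FPKM of cell type markers in each of the 6 implanted libraries, with 1 panel for each list, 1 bar for each library and axes from 0, PBS in grey and cGAMP in red. Leukocyte and macrophage sums of cGAMP library 2 (190 and 634) stand above those of the other libraries, and the epithelial sum is lowest in cGAMP library 1 (570).

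Of 13983 genes tested, 2841 rose (20.3%) and 2623 fell (18.8%) with cGAMP. With the limit of 2-fold, 857 were called higher (6.13%) and 153 called lower (1.09%). On the log2(FPKM + 1) scale 226 of these rose at least 4-fold and 24 at least 16-fold, while 2 fell at least 4-fold. By the ratio of mean FPKM, 354 rose at least 4-fold and 37 at least 16-fold, while 20 fell at least 4-fold and 0 at least 16-fold. The PBS and cGAMP values of 1001 of the 1010 called genes (7.22% of those tested) did not overlap, and over all tested genes the cGAMP values lay wholly above in 22.4% and wholly below in 22.8%. Of the genes called higher, 627 were highest in cGAMP library 1, 144 in library 2 and 86 in library 3. Library 1 was also lowest for 100 of the 153 genes called lower. Without library 2 there were 947 calls higher and 216 lower, with 803 and 136 of the calls retained, and without library 1 there were 775 and 127, with 731 and 100 retained. In 26 of the genes called higher, library 2 exceeded both other cGAMP libraries more than 2-fold, as did library 1 in 11 and library 3 in 1. Scaling by total reads, which moved the median change of all genes by −0.233, gave 552 calls higher and 433 lower, a share of rises of 56.0% in place of 84.9%. By adjusted p-value alone 12.1% of genes then rose and 42.3% fell. A pseudocount of 0.1 gave 1224 calls higher and 544 lower (69.2% higher), and voom on recovered reads 1236 and 587 (67.8% higher).

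The largest rises were antiviral effectors and chemokines. Rsad2, which encodes viperin, a radical enzyme that makes a chain terminator of viral polymerases, read 13.6, 13.6 and 12 against 2079, 1592 and 1604 FPKM (log2 change 6.96 ± 0.20, adjusted p = 1.6e-12). Ifit2, whose product binds viral RNA, read 24.2, 17.2 and 12.6 against 1680.0, 1358 and 1381 FPKM (log2 change 6.32 ± 0.23, adjusted p = 1.4e-11), and the 2 groups did not overlap in any of the 20 genes of this group, which were chosen to be so. Its relatives Ifit3 (19.5, 10.5 and 11.8 against 787, 791 and 765 FPKM), Ifit3b (13.5, 6.38 and 9.56 against 434, 436 and 454 FPKM) and Ifit1 (21.2, 14.2 and 15.3 against 709, 732 and 667 FPKM) were close to even among the cGAMP libraries. Ifit1bl1 went from near the limit of detection, 0.426, 1.1 and 0.358 FPKM, to 135, 98.8 and 124. Ifit genes are near-identical in part, so the division of reads among them is uncertain. Cmpk2, a mitochondrial nucleotide kinase that neighbours Rsad2, read 16.1, 12.2 and 9.97 against 1147, 901 and 913 FPKM. Oasl1, of the oligoadenylate synthetase family, read 8.58, 4.72 and 4.23 against 562, 431 and 444 FPKM. Mx1, a dynamin-like GTPase against RNA viruses, read 0.877, 0.597 and 0.401 against 72.5, 86.2 and 89.8 FPKM, and Usp18, the protease that removes ISG15 from proteins, read 14.3, 10.1 and 9.07 against 288, 281 and 273 FPKM.

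Chemokines formed the other main group among these 20 genes. Cxcl10, a ligand of CXCR3 on T cells, read 24.9, 16 and 14.5 against 1747, 1071 and 1109.8 FPKM (log2 change 6.07 ± 0.22, adjusted p = 1.4e-11). Cxcl11, another ligand of that receptor, read 15.2, 10.2 and 9.55 against 606, 331 and 371 FPKM. Ccl2, which draws monocytes, read 3.29, 1.98 and 2.93 against 401, 166 and 134 FPKM (log2 change 5.82 ± 0.36, adjusted p = 4.1e-09), and Ccl7, with a like role, read 1.87, 0.564 and 1.64 against 74.1, 54.9 and 27.9 FPKM. In these 4 genes cGAMP library 1 was the highest. Ccl5, a chemokine of T cells and monocytes, read 3.12, 1.88 and 3.79 against 123, 107 and 115 FPKM, with even levels among the cGAMP libraries. Ccrl2, a receptor that presents chemerin on the endothelial surface, read 11.4, 8.0 and 8.53 against 309, 231 and 194 FPKM (log2 change 4.56 ± 0.17, adjusted p = 2.2e-11). Lipg, the endothelial lipase that acts on high-density lipoprotein, read 1.63, 2.11 and 2.68 against 97.9, 63.8 and 65.7 FPKM (log2 change 4.597 ± 0.18, adjusted p = 3.4e-11). Cd274, which encodes the checkpoint ligand PD-L1, read 13.2, 6.05 and 8.97 against 334, 181 and 166 FPKM. Ifih1, the RNA sensor MDA5, read 11.7, 8.08 and 8.91 against 231, 196 and 206 FPKM, and Ifi202b, of the interferon-induced p200 family, read 8.7, 8.85 and 9.6 against 245, 169 and 189 FPKM.

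**Figure D2:**
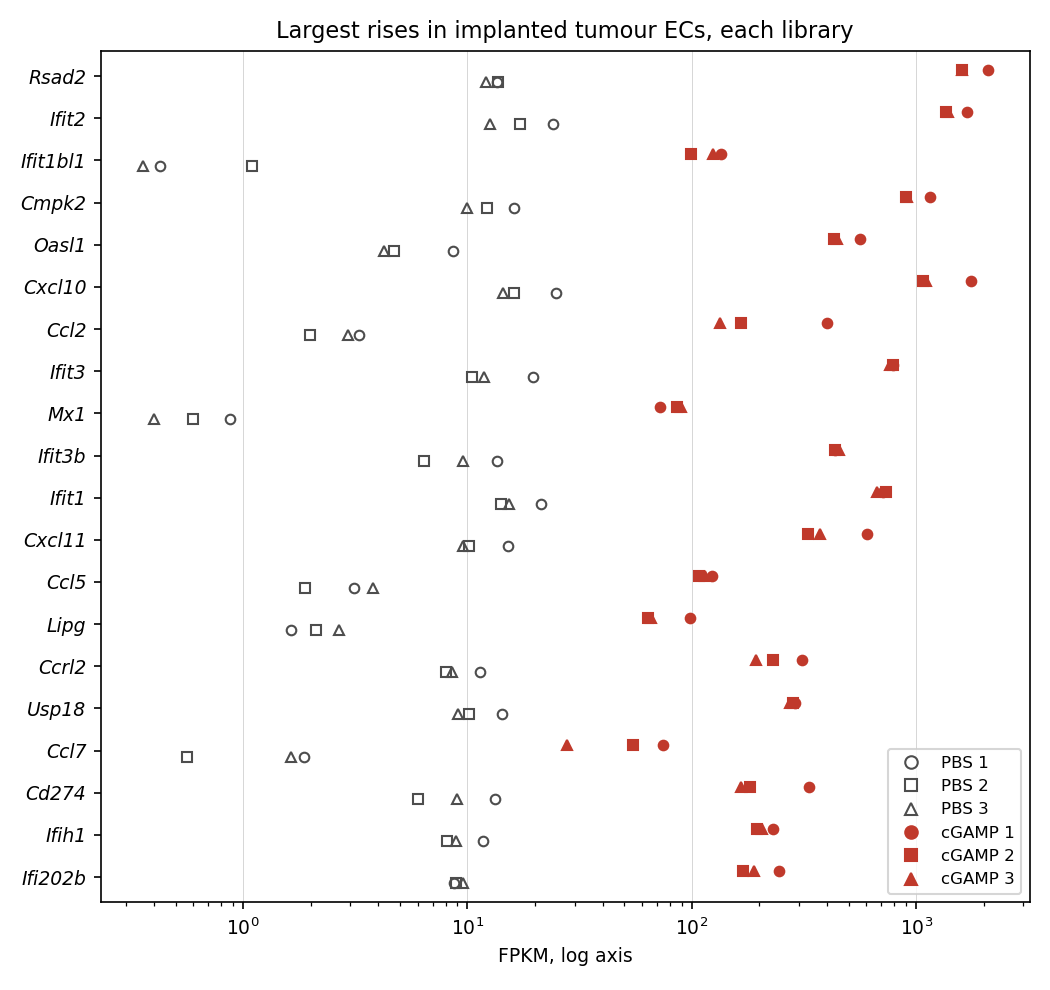
FPKM of the 20 largest rises in the 6 implanted libraries on a log axis, with 1 point for each library and PBS and cGAMP in separate colours. Every cGAMP point lies above every PBS point, which the choice of genes required, from Rsad2 at the top to Ifi202b.

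Genes were next grouped by function, and counts of 1 or 2 genes in a list often moved by 1 when single libraries were left out. Counts of each list stand against the 20.3% of all tested genes that rose and the 18.8% that fell, and counts under scaling by total reads against 12.1% and 42.3%. Of 44 antiviral effectors tested, 42 rose and 0 fell (median log2 change 2.39, against −0.01 over all genes), and 41 rose without cGAMP library 2. The exceptions were Ifitm2, whose product blocks viral fusion, at 123, 136 and 124 against 171, 139.9 and 142 FPKM (log2 change 0.24 ± 0.09, adjusted p = 0.053), and Ifi27, a mitochondrial protein gene, at 41.2, 38.6 and 45.2 against 39.9, 41 and 40.8 FPKM (log2 change -0.03 ± 0.09, adjusted p = 0.78). All 17 genes on the list of RNA and DNA sensors, which also holds the surface receptor Tlr2, rose (median 2.56). Dhx58, which encodes LGP2, read 11.7, 6.8 and 6.65 against 93.7, 79.2 and 81.3 FPKM. Tlr2, whose ligands are bacterial lipopeptides, read 10.2, 8.73 and 9.07 against 109, 89 and 98.9 FPKM. The p200 genes Ifi204 (3.22, 2.6 and 2.07 against 63.9, 43.8 and 47.7 FPKM) and Ifi207 (0.532, 0.66 and 0.887 against 31.6, 25.9 and 20.5 FPKM) rose by 3.86 and 3.98 on the log2 scale, in a family whose reads are hard to separate. All 6 genes in the list of interferon-induced PARP enzymes and their partner rose as well. Parp14 read 43.7, 34.3 and 33.3 against 349, 235 and 274 FPKM and Parp12 read 27.2, 20.9 and 20.7 against 140.2, 108 and 128 FPKM, and Dtx3l, a ubiquitin ligase that works with PARP9, read 56.8, 41.3 and 49 against 232, 202 and 217 FPKM.

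GTPases of cell-autonomous defence rose without exception, 14 of 14 tested (median 2.34), also without any single implanted library. Guanylate-binding proteins attack the membranes of intracellular microbes. Gbp5 read 26.8, 18.3 and 19.8 against 328, 219 and 253 FPKM, Gbp2 read 327, 225 and 238 against 2114, 1345 and 1529 FPKM and Gbp2b read 3.45, 1.32 and 3.41 against 22.3, 25.2 and 20.5 FPKM. The immunity-related GTPases Igtp (122, 88.3 and 112 against 648, 593 and 597 FPKM), Iigp1 (109.5, 79.6 and 86.4 against 404, 329 and 356 FPKM), Irgm2 (47.3, 33.2 and 39.7 against 217, 185 and 190.2 FPKM) and Tgtp1 (25.4, 18.3 and 22.1 against 121, 103 and 107 FPKM) had high levels under PBS already. The 3 Schlafen genes tested all rose. Slfn5 read 15.9, 18.6 and 17.6 against 168, 101 and 131 FPKM, Slfn4 read 1.08, 0.741 and 1.02 against 16.1, 16.2 and 11.8 FPKM and Slfn9 read 4.59, 4.39 and 3.55 against 38.9, 32.4 and 36.6 FPKM. Gbp, Tgtp and Schlafen genes lie in clusters of close copies, and the assignment of reads among them is uncertain.

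**Figure D3:**
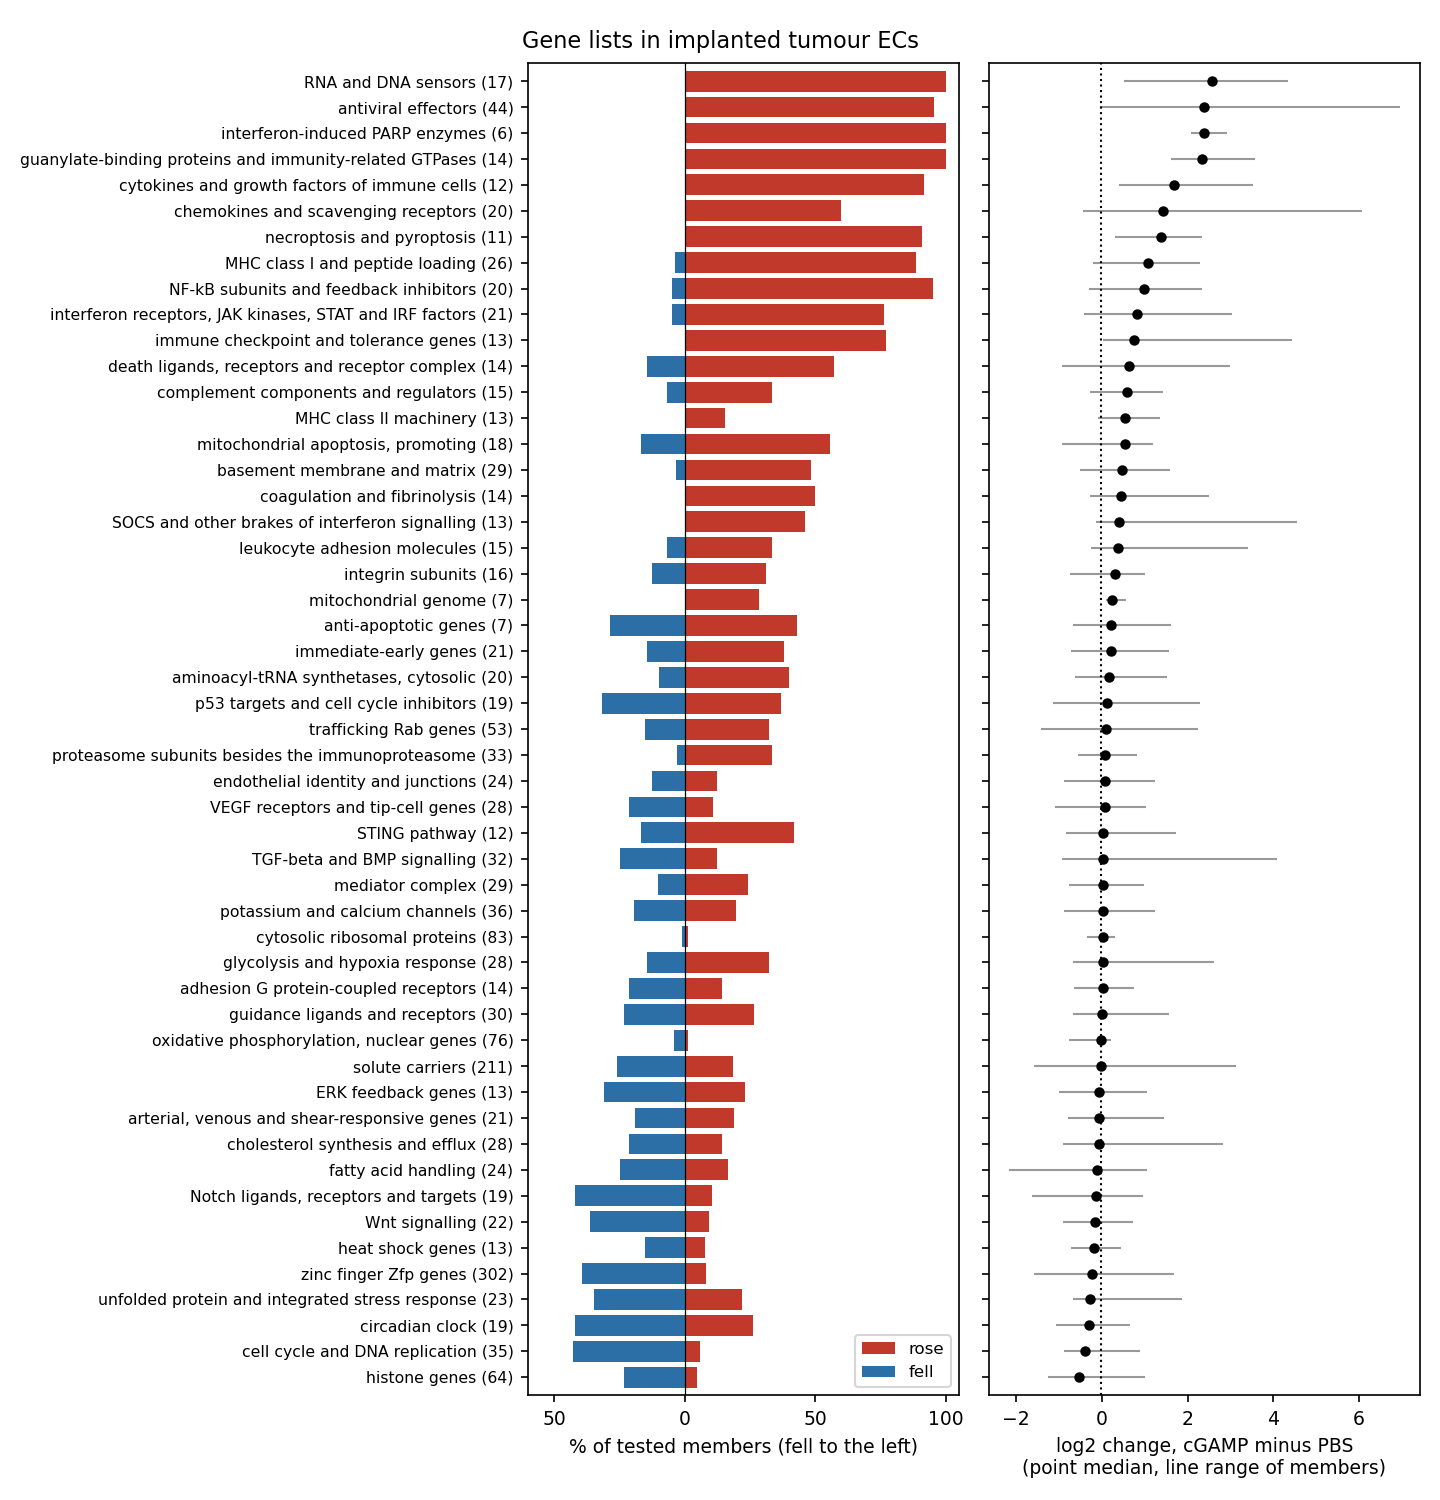
Gene lists in implanted ECs, with the number of tested genes in brackets. Bars on the left give the % of tested members that rose (red) or fell (blue), and on the right a point gives the median log2 change, a line the range of the members and a dotted line the median of all genes. Sensors (median 2.56), antiviral effectors (2.39) and GTPases (2.34) lie above the median of all genes (−0.01), and the histone (−0.53) and cell cycle (−0.39) lists lie below it.

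On the list of the STING pathway 5 of 12 genes rose (41.7%, against 20.3% of all genes) and 2 fell (16.7%, near the 18.8% of all genes). The median was 0.03, and 4 were down under scaling by total reads. This list also holds adaptors of other receptors and a channel subunit. Tmem173 rose to 2.25 times its PBS mean, at 34.2, 40.6 and 34.8 against 92.7, 82.1 and 72.1 FPKM. Cgas, the DNA sensor, read 1.14, 1.67 and 1.2 against 6.35, 5.96 and 5.0 FPKM, and Tbk1, the kinase downstream of STING, read 9.75, 9.79 and 8.57 against 36.9, 26.8 and 28.6 FPKM (log2 change 1.60 ± 0.11, adjusted p = 1.2e-08). Myd88, the adaptor of Toll-like and interleukin-1 receptors, read 17, 16.9 and 15.4 against 60.2, 58.1 and 53.2 FPKM, and Ikbke, the kinase most like TBK1, read 0.866, 0.689 and 0.696 against 1.76, 2.44 and 1.31 FPKM. Irf3 had lower values without passing the test, at 8.61, 8.33 and 7.67 against 5.25, 7.08 and 7.38 FPKM (log2 change -0.29 ± 0.14, adjusted p = 0.10), and passed under scaling by total reads (adjusted p = 0.005). The members that fell were Mavs, the adaptor of the RNA sensors, at 6.43, 6.11 and 6.75 against 2.68, 3.41 and 3.46 FPKM (log2 change -0.83 ± 0.11, adjusted p = 2.2e-05), and Lrrc8a, a subunit of the volume-regulated channel that passes cGAMP, at 18.7, 24.6 and 20.8 against 16.2, 11.3 and 13.7 FPKM (log2 change -0.61 ± 0.12, adjusted p = 0.00075).

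Of 21 interferon receptors, JAK kinases, STAT and IRF factors, 16 rose (median 0.82). Irf5, a factor that drives inflammatory cytokines in myeloid cells, rose the most, from 1.18, 0.855 and 1.74 to 17.2, 20.4 and 15 FPKM (log2 change 3.05 ± 0.20, adjusted p = 6.4e-09). It was highest in cGAMP library 2, and libraries 1 and 3 also lay above every PBS library. General leukocyte sums were likewise higher in every cGAMP library than in any PBS library, and their part in Irf5 was not tested. Stat2 read 13.8, 13.7 and 12.3 against 74.1, 60.3 and 67.1 FPKM, Jak2 read 22.3, 21.8 and 20.9 against 133, 80.1 and 88 FPKM and Irf7, which amplifies interferon production, read 68.5, 34.9 and 35.4 against 215, 179 and 179.6 FPKM. Irf8, a factor of myeloid and B cells, read 13.8, 9.27 and 9.15 against 58.1, 41.9 and 33.2 FPKM. Ifnar1, a chain of the type I interferon receptor, was the single member that fell, at 19, 21.8 and 19.3 against 15.2, 15.2 and 13.7 FPKM (log2 change -0.42 ± 0.11, adjusted p = 0.0059). Among brakes of this signalling, 6 of 13 rose and 0 fell. Socs1, an inhibitor of JAK kinases, read 7.03, 5.75 and 6.4 against 56.3, 43.7 and 33.6 FPKM, the related Socs7 read 4.55, 4.59 and 5.36 against 20.1, 14.1 and 15 FPKM, and Ptpn2, a phosphatase that acts on JAK kinases, read 9.56, 7.52 and 9.29 against 21.2, 24.4 and 22 FPKM.

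Genes of antigen presentation by MHC class I were mostly higher, with 23 of 26 risen (median 1.06) and 1 fallen. The regulator Nlrc5 read 12.7, 10.6 and 13 against 73.6, 53.2 and 63.6 FPKM. The peptide transporter genes Tap1 (58, 45.3 and 46.9 against 226, 169 and 188 FPKM) and Tap2 (52.7, 40.9 and 41.3 against 166, 137 and 147 FPKM) and the immunoproteasome subunit gene Psmb10 (41.8, 34.3 and 30.6 against 118, 108 and 115 FPKM) changed by 1.94, 1.72 and 1.66 on the log2 scale. The changes of the chains H2-K1 and B2m were smaller in value. The class I chain H2-K1 read 684, 565 and 646 against 1043, 972 and 854 FPKM (log2 change 0.60 ± 0.11, adjusted p = 0.00057), a rise that did not pass with quantile normalisation. The light chain B2m read 2483, 1970.4 and 2245 against 3416, 3046 and 2648 FPKM (log2 change 0.44 ± 0.14, adjusted p = 0.016), and did not pass without PBS library 2 (adjusted p = 0.076), without cGAMP library 1 (adjusted p = 0.074) or with scaling by total reads. Nor did B2m pass with quantile normalisation or with the implanted libraries alone. H2-T24, a non-classical class I gene, read 6.87, 7.3 and 5.84 against 41.3, 29.3 and 39.98 FPKM, with the limit that H2 genes share sequence. Its log2 change of 2.29 was larger than those of Tap1, Tap2 and Psmb10. Of 13 class II genes, 2 rose. These were Ciita, the class II transactivator, at 4.75, 3.03 and 3.94 against 9.04, 6.3 and 7.87 FPKM, and Rfx5, a factor at class II promoters, at 2.82, 2.57 and 2.47 against 7.85, 6.34 and 8.07 FPKM. H2-Ab1 read 84.4, 66.6 and 105.4 against 149.8, 253 and 93.3 FPKM (log2 change 0.85 ± 0.48, adjusted p = 0.17) and Cd74, the invariant chain, read 545, 409 and 629 against 1059.8, 1155 and 552 FPKM (log2 change 0.76 ± 0.50, adjusted p = 0.25). Both were highest in cGAMP library 2, where leukocyte sums were also highest, and the part of leukocytes in them was not tested. Class II rises numbered 5 without cGAMP library 3, 4 without cGAMP library 1 and 5 without normal cGAMP library 1.

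Of 20 chemokines and scavenging receptors, 12 rose and 0 fell, and of 12 cytokines and growth factors of immune cells 11 rose (9 without cGAMP library 2). Cxcl9, the remaining CXCR3 ligand, read 289, 213 and 201 against 2225, 1119 and 1273 FPKM. Il15, a growth factor of NK and memory T cells, read 4.54, 4.3 and 3.27 against 84, 44.9 and 48.1 FPKM (log2 change 3.53 ± 0.19, adjusted p = 9.7e-10). Il6 read 3.57, 3.58 and 4.46 against 91.7, 39.7 and 24.2 FPKM, with library 1 far above library 3. The colony-stimulating factors Csf1, which supports macrophages, and Csf3, which supports neutrophils, read 10.4, 8.1 and 7.66 against 68.3, 46.6 and 54.3 FPKM and 1.74, 1.2 and 1.43 against 16.3, 7.99 and 9.16 FPKM. Il1rn, the antagonist of the interleukin-1 receptor, read 0.851, 0.408 and 0.896 against 3.48, 14.5 and 2.64 FPKM, and Il33, an alarmin, read 1.11, 0.822 and 1.09 against 7.71, 10.9 and 3.73 FPKM. Both were highest in library 2, the library with the highest leukocyte and fibroblast sums, and the part of either in these values was not tested.

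Of 15 leukocyte adhesion molecules, 5 rose and 1 fell, and without cGAMP library 2 these counts were 9 and 0. Vcam1 read 11.7, 8.86 and 10.3 against 179, 93.1 and 101 FPKM (log2 change 3.42 ± 0.25, adjusted p = 2e-08) and Icam1 read 20.8, 17.7 and 23.4 against 188, 102 and 143 FPKM (log2 change 2.71 ± 0.22, adjusted p = 6e-08). These molecules hold leukocytes on the vessel wall through integrins. Selp, which encodes P-selectin and lets leukocytes roll, read 12.8, 28.8 and 16.1 against 44.7, 30.9 and 36.7 FPKM, and F11r, a junctional adhesion molecule, read 115, 117 and 102 against 244, 166 and 204 FPKM. Sele, which encodes E-selectin, read 5.11, 8.88 and 6.74 against 14.1, 7.92 and 16.6 FPKM and did not pass (log2 change 0.78 ± 0.34, adjusted p = 0.082), but passed without cGAMP library 2 (1.07, adjusted p = 0.026).

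NF-kB subunits and feedback inhibitors rose in 19 of 20 cases (median 0.98). The inhibitor Nfkbie read 11.4, 11.9 and 13.1 against 76.5, 61.1 and 58.6 FPKM, Tnip1 read 23.1, 20.04 and 21.4 against 159, 78.3 and 89.3 FPKM and Tnfaip3, the deubiquitinase A20, read 15.8, 13.1 and 15.9 against 79, 67.9 and 46.4 FPKM. Birc3, which encodes the ubiquitin ligase cIAP2, read 10.1, 10.03 and 11.6 against 49.7, 35.9 and 34.5 FPKM. Of immediate-early genes, 8 of 21 rose and 3 fell (1 without PBS library 1, PBS library 3, cGAMP library 2 or cGAMP library 3), but 5 rose and 8 fell with quantile normalisation. Atf3, a stress-induced repressor, read 52.9, 47 and 57.4 against 173, 157 and 144 FPKM, Fosl1, an AP-1 subunit, read 0.263, 0.50 and 0.299 against 2.94, 2.16 and 2.04 FPKM and Btg2, an antiproliferative gene, fell, at 94.2, 88.6 and 113 against 53.9, 61.8 and 63.4 FPKM.

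In the list of death ligands, receptors and their complex, 8 of 14 rose and 2 fell (1 without PBS library 1, and 5 under scaling by total reads). Tnfsf10, which encodes TRAIL, read 22.8, 19.7 and 21 against 208, 151 and 169 FPKM (log2 change 2.99 ± 0.15, adjusted p = 3.4e-10). Fas read 2.54, 3.34 and 2.85 against 10.03, 7.49 and 8.19 FPKM, the initiator caspase Casp8 read 28.3, 28.9 and 22.1 against 109, 70.8 and 77.8 FPKM and its inhibitor Cflar read 11.5, 11 and 11.9 against 48.2, 28.4 and 32.1 FPKM, so activator and inhibitor were both higher. Of genes that promote mitochondrial apoptosis, 10 of 18 rose and 3 fell (7 under scaling by total reads), with Bbc3, which encodes PUMA, at 3.12, 4.09 and 4.38 against 7.83, 12.9 and 9.86 FPKM. Among 7 anti-apoptotic genes 3 rose and 2 fell, with 2 and 3 under scaling by total reads, and Bcl2 was one of the latter, at 7.02, 6.17 and 6.08 against 3.51, 4.06 and 3.46 FPKM (log2 change -0.67 ± 0.13, adjusted p = 0.00069). Birc2, which encodes cIAP1, a ubiquitin ligase of the TNF receptor complex, rose, at 6.73, 6.98 and 6.21 against 27.3, 21.1 and 19.5 FPKM, and Naip2, on this list for its inhibitor-of-apoptosis domains and known as a sensor of bacterial secretion systems, rose, at 4.75, 4.61 and 3.74 against 10.8, 10.1 and 8.95 FPKM.

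Necroptosis and pyroptosis genes rose in 10 of 11 cases, with 0 falls (median 1.37). Ripk3 (13.2, 20.2 and 13.5 against 95.5, 54.9 and 56.9 FPKM) and Mlkl (15.1, 14.5 and 13.9 against 66.3, 54.6 and 56.3 FPKM) encode the kinase and the membrane-permeabilising effector of necroptosis. Casp1 read 10.3, 6.99 and 7.97 against 24.4, 27.6 and 31.2 FPKM, and Casp4, whose product senses cytosolic lipopolysaccharide, read 5.34, 4.23 and 4.96 against 35.7, 24.8 and 26.3 FPKM. Gsdmd, which encodes the pore of pyroptosis, read 7.2, 8.31 and 7.28 against 30.3, 22.6 and 21.3 FPKM. In each of these 5 genes every cGAMP library lay above every PBS library.

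Immune checkpoint and tolerance genes rose in 10 of 13 cases (8 without cGAMP library 2, and 5 with scaling by total reads). Cd40, a receptor for T cell help, read 4.18, 4.21 and 3.12 against 63.1, 39.8 and 46.2 FPKM (log2 change 3.37 ± 0.24, adjusted p = 1.6e-08). Ido1, which degrades tryptophan, read 1.64, 0.743 and 1.22 against 15.9, 8.86 and 11.5 FPKM (log2 change 2.55 ± 0.27, adjusted p = 1.8e-06), and Lgals9, which encodes galectin-9, read 101, 93.4 and 80.6 against 442, 303 and 355 FPKM. Of coagulation and fibrinolysis genes, 7 of 14 rose and 0 fell. The count of rises was 4 without PBS library 3 or without cGAMP library 1, and 3 with scaling by total reads. Plaur, the urokinase receptor, read 15, 15.6 and 12.6 against 65.5, 34.2 and 39.3 FPKM. Complement genes rose in 5 of 15 cases (8 without cGAMP library 3), among them Cfb, factor B of the alternative pathway, at 5.23, 5.4 and 6.38 against 16.2, 19.9 and 14.9 FPKM. Ptgs2, the inducible cyclooxygenase, read 4.72, 2.12 and 6.21 against 11.4, 23.2 and 7.72 FPKM. It was highest in cGAMP library 2, beside the highest leukocyte and fibroblast sums, whose part was not tested.

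Genes of endothelial identity showed few changes and in both directions, with 3 of 24 up and 3 down. Without cGAMP library 2, 7 rose, while 1 rose and 8 fell under scaling by total reads and 1 rose and 11 fell with quantile normalisation. Sox18, a factor of vascular development, fell, at 122, 177 and 129 against 98, 52.6 and 83.6 FPKM (log2 change -0.89 ± 0.20, adjusted p = 0.0022). Ocln, a tight junction protein gene, rose, at 4.69, 3.56 and 4.43 against 7.53, 13.8 and 13.5 FPKM (log2 change 1.24 ± 0.20, adjusted p = 0.00011). Among 28 VEGF receptor and tip-cell genes 3 rose and 6 fell (21.4%, near the 18.8% of all genes), with 1 rise and 13 falls under scaling by total reads. Without cGAMP library 2 these counts became 9 and 2. There was 1 rise without cGAMP library 1, and there were 5 without MMTV-PyMT cGAMP library 1. Falls numbered 3 without PBS library 1 or MMTV-PyMT PBS library 2, and 2 without PBS library 2. Esm1, a proteoglycan gene of tip cells, fell, at 136, 107 and 143 against 71.5, 55 and 54.3 FPKM (log2 change -1.08 ± 0.29, adjusted p = 0.0069), whereas Adm, which encodes the vasodilator adrenomedullin, rose, at 21, 19 and 16.8 against 40.8, 43.1 and 35.4 FPKM.

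In the Notch pathway 8 of 19 genes fell and 2 rose. Falls included the target genes Hey1 (39.1, 38.7 and 47.5 against 24.9, 18.1 and 30.4 FPKM) and Nrarp (23, 25 and 17.2 against 14.8, 8.1 and 12.6 FPKM) and the glycosyltransferase genes Lfng (6.58, 8.84 and 7.23 against 4.01, 5.51 and 2.6 FPKM) and Mfng (25, 29.8 and 24.6 against 20.4, 14.9 and 15.8 FPKM), which modify Notch receptors. Dll1, a ligand, rose, at 14.4, 17.2 and 13.2 against 35.5, 23 and 31.9 FPKM. Among arterial, venous and shear-responsive genes 4 of 21 rose (2 without PBS library 3 or cGAMP library 1) and 4 fell (19.0% each, near the shares of all genes), with 2 rises and 10 falls under scaling by total reads and 8 with quantile normalisation. Gja5, the connexin of arterial ECs, fell, at 12.5, 12.7 and 11.7 against 6.89, 6.21 and 7.17 FPKM (log2 change -0.78 ± 0.16, adjusted p = 0.0012), and Klf4, a flow-induced factor, rose, at 13.4, 16.4 and 19.6 against 39.3, 27.1 and 28.9 FPKM. Ednrb, an endothelin receptor gene, fell, at 88.3, 109.8 and 87.4 against 71.8, 39.8 and 61.7 FPKM.

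Bmp2 had the largest rise of the TGF-beta and BMP list. This ligand of bone morphogenetic protein receptors read 19.1, 8.2 and 10.7 against 352, 171 and 169 FPKM (log2 change 4.07 ± 0.29, adjusted p = 1.5e-08), 18.2 times its PBS mean. Of 32 TGF-beta and BMP genes 4 rose (12.5%, against 20.3% of all genes) and 8 fell (25.0%, against 18.8%), and 2 rose and 14 fell under scaling by total reads. Leaving out single libraries gave 10 rises without cGAMP library 2 and 2 without PBS library 1 or cGAMP library 1. Bambi, a decoy receptor, rose, at 11, 11 and 8.92 against 25.2, 22.7 and 24.1 FPKM. The ligand Tgfb3 (42.6, 34 and 35.6 against 15, 24.9 and 18.9 FPKM) and the co-receptor Tgfbr3 (12.3, 14.5 and 17.1 against 7.35, 8.39 and 7.02 FPKM) fell. In Wnt signalling 8 of 22 genes fell and 2 rose, with 13 falls under scaling by total reads. The receptors Fzd4 (51.8, 58.7 and 49.8 against 35.6, 21.6 and 31 FPKM) and Lrp6 (15.2, 14 and 16.3 against 8.46, 9.5 and 9.3 FPKM), the secreted inhibitor Dkk2 (5.81, 3.87 and 5.3 against 2.49, 2.18 and 1.84 FPKM) and Rnf43, a ligase that removes Frizzled receptors (3.88, 1.98 and 3.43 against 0.565, 1.9 and 1.24 FPKM), were among the falls, so receptors and inhibitors were both lower.

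Of 29 basement membrane and matrix genes 14 rose and 1 fell, with 8 rises under scaling by total reads. Timp1 (10.5, 13.7 and 9.57 against 33, 30.5 and 22.9 FPKM) and Timp3 (80.1, 84.7 and 91.7 against 323, 181 and 202 FPKM) encode inhibitors of metalloproteinases, and Adamts9 (19.3, 22.8 and 18.7 against 65.1, 33.5 and 40.9 FPKM) and Adamts4 (112, 111 and 86.3 against 447, 258 and 262 FPKM) encode proteoglycan-cleaving proteases. Fibroblast marker sums were higher in cGAMP libraries 1 and 2 than in any PBS library, and their part in the matrix genes was not tested. Guidance genes split, with 8 up and 7 down of 30, but 6 up and 14 down under scaling by total reads, 7 and 11 with quantile normalisation and 7 and 8 without cGAMP library 1. The semaphorins Sema4c (26, 24.4 and 19.7 against 94.1, 58.1 and 65.6 FPKM) and Sema3a (2.81, 2.24 and 1.89 against 10.8, 6.57 and 5.46 FPKM), which steer axons and vessels, were among the rises.

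Of 35 cell cycle and replication genes 15 fell and 2 rose (median -0.39), but the falls numbered 7 without PBS library 2, 8 without cGAMP library 1 and 23 under scaling by total reads. Epithelial and tumour cell markers also fell in 5 of 14 cases, with the lowest sum in cGAMP library 1, and the part of tumour cells in the cell cycle falls was not tested. Cdc20, an activator of the anaphase-promoting complex, read 9.34, 16.1 and 12.5 against 5.63, 6.94 and 6.35 FPKM, and the mitotic kinase gene Aurka read 5.33, 7.5 and 6.24 against 3.4, 3.38 and 3.28 FPKM. Rrm2, a subunit of ribonucleotide reductase, read 11.1, 13.2 and 10.5 against 5.44, 7.16 and 5.56 FPKM, and the replicative helicase genes Mcm3 and Mcm7 read 12.3, 12.3 and 10.6 against 5.51, 9.0 and 6.14 FPKM and 9.33, 9.44 and 7.41 against 3.97, 5.45 and 5.36 FPKM. Cenpe, a kinetochore motor gene, went the other way, at 1.75, 2.14 and 2.1 against 4.11, 4.08 and 5.47 FPKM. Cdkn1a, which encodes the cyclin-dependent kinase inhibitor p21, read 28.4, 30.3 and 35 against 203, 139 and 132 FPKM (log2 change 2.28 ± 0.17, adjusted p = 3.4e-08), and Cdkn2b, which encodes the inhibitor p15, fell, at 5.7, 8.86 and 6.99 against 1.38, 3.59 and 3.55 FPKM (log2 change -1.14 ± 0.26, adjusted p = 0.0023). The list of p53 targets and cell cycle inhibitors, which holds both, was split, with 7 rises and 6 falls of 19, and 6 and 9 under scaling by total reads. Eda2r (0.818, 1.07 and 1.22 against 7.84, 4.68 and 4.06 FPKM) and Gadd45b (10.9, 7.46 and 8.85 against 29.4, 27.3 and 18.4 FPKM) rose, and Zmat3, an RNA-binding target of p53, fell, at 5.08, 5.91 and 6.06 against 2.06, 2.47 and 2.72 FPKM. Of 64 histone genes 15 fell (23.4%, against 18.8% of all genes) and 3 rose (median -0.53), with 35 falls under scaling by total reads, 5 falls without PBS library 2, 3 without cGAMP library 1 and 30 without normal cGAMP library 2. The rises included H2afy (9.78, 9.45 and 7.86 against 21.9, 16.9 and 18.8 FPKM) and H3f3b (205, 166 and 171 against 326, 379.8 and 361 FPKM), genes of variants whose synthesis is not tied to replication. Reads of histone genes are hard to assign among copies.

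Stress genes were mixed. Of 23 genes of the unfolded protein and integrated stress responses 5 rose and 8 fell (5 without PBS library 3, and 14 under scaling by total reads). Xbp1, the factor downstream of IRE1, fell, at 105.2, 106 and 125 against 62.5, 80.4 and 67 FPKM, and Eif2ak3, which encodes the kinase PERK, fell, at 7.07, 6.95 and 7.02 against 3.99, 4.4 and 4.05 FPKM. Atf6 (15.4, 16.7 and 15.3 against 43.5, 26.7 and 30.6 FPKM), Edem1, of protein disposal (21.8, 25 and 24.8 against 52.4, 49.1 and 41.4 FPKM), and Ppp1r15a, a phosphatase subunit that restores translation (15.8, 15.6 and 14.9 against 79.9, 54.2 and 47 FPKM), rose. In the circadian clock 8 of 19 genes fell and 5 rose, with 0 rises under scaling by total reads and 3 without PBS library 1. Hlf, a factor of clock output, fell, at 5.75, 3.35 and 5.15 against 1.09, 2.35 and 1.83 FPKM (log2 change -1.06 ± 0.20, adjusted p = 0.00051).

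Of 28 glycolysis and hypoxia genes 9 rose and 4 fell (7 falls without cGAMP library 2), but 7 rose and 14 fell under scaling by total reads, and 6 rose and 15 fell with quantile normalisation. Pfkfb3, which makes the activator of phosphofructokinase and sets glycolytic flux in ECs, read 29.9, 24.3 and 30.5 against 248, 144 and 152 FPKM (log2 change 2.60 ± 0.17, adjusted p = 8e-09). Hexokinase genes Hk1 (34.3, 32.5 and 29.6 against 60.9, 47.9 and 51.5 FPKM) and Hk2 (5.92, 4.26 and 6.41 against 10.2, 18.4 and 10.1 FPKM) and the phosphofructokinase gene Pfkp (11.3, 12.1 and 10.9 against 25.5, 21.8 and 21.6 FPKM) also rose. In fatty acid handling 4 of 24 rose (16.7%, against 20.3% of all genes) and 6 fell (25.0%, against 18.8%), with 2 rises and 12 falls under scaling by total reads. Plin2, a coat protein gene of lipid droplets, rose, at 75.7, 70.3 and 85.2 against 168, 154 and 156 FPKM, and the transporter gene Slc27a4 fell, at 11.2, 11.1 and 12.2 against 5.45, 7.06 and 6.58 FPKM. Meox2, a homeobox gene that drives fatty acid uptake in ECs, fell as well, at 11.8, 14.3 and 11.7 against 6.94, 5.04 and 5.11 FPKM (log2 change -1.03 ± 0.14, adjusted p = 3e-05). In cholesterol metabolism 4 of 28 rose and 6 fell (3 falls without PBS library 1 or cGAMP library 1, and 2 rises without PBS library 3 or cGAMP library 1). These shares, 14.3% and 21.4%, were near those of all genes, and 1 rose and 13 fell under scaling by total reads. Ch25h, which makes the antiviral oxysterol 25-hydroxycholesterol, read 14.8, 9.44 and 7.44 against 111, 82.7 and 51.6 FPKM (log2 change 2.82 ± 0.32, adjusted p = 3.4e-06). Sqle, a synthesis enzyme gene, and Stard4, of sterol transport, fell, at 10.5, 9.02 and 6.73 against 2.76, 6.17 and 4.1 FPKM and 10.3, 12.5 and 8.79 against 6.7, 4.19 and 6.74 FPKM. Of 20 cytosolic aminoacyl-tRNA synthetases 8 rose and 2 fell, but 5 rose and 9 fell under scaling by total reads. The rises were led by Wars for tryptophan, at 66.5, 54.9 and 57.3 against 242, 136 and 153 FPKM.

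Among 83 cytosolic ribosomal protein genes 1 rose and 1 fell (median 0.02), and among 76 nuclear genes of oxidative phosphorylation 1 rose and 3 fell. Under scaling by total reads, where the median of all genes moved by −0.233, 60 and 49 of them fell, and 70 ribosomal genes fell with quantile normalisation. Without cGAMP library 2, 4 ribosomal and 6 oxidative phosphorylation genes fell. The latter numbered 1 without PBS library 2 or cGAMP library 1 and 0 without cGAMP library 3. Of 33 constitutive proteasome subunits 11 rose and 1 fell, with 4 rises and 17 falls under scaling by total reads, and 4 rises and 12 falls with quantile normalisation. Psma5 read 44.2, 44.3 and 41.9 against 84.4, 73 and 74.9 FPKM. Of 29 mediator subunits 7 rose and 3 fell, but 2 rose and 11 fell under scaling by total reads. Med13 was among the rises, at 19.4, 18.9 and 21.7 against 47.8, 34.8 and 39.4 FPKM.

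Of 302 genes named Zfp, 119 fell (39.4%, against 18.8% of all tested genes) and 24 rose, with a median of -0.23. Under scaling by total reads 190 fell (62.9%, against 42.3% of all genes). The falls numbered between 92 and 114 when any single implanted library was left out, with 103 without cGAMP library 2. Exceptions included Zfp296 (1.1, 1.33 and 1.44 against 5.64, 7.12 and 6.16 FPKM) and Zfp800 (5.41, 4.89 and 5.13 against 18.6, 11.3 and 13.2 FPKM), which rose. In solute carriers 39 of 211 rose (18.5%, against 20.3% of all genes) and 55 fell (26.1%, against 18.8%), with 21 rises and 91 falls under scaling by total reads. Slc15a3, a lysosomal peptide transporter gene, read 3.16, 2.94 and 3.23 against 47.1, 26.7 and 33.9 FPKM (log2 change 3.13 ± 0.18, adjusted p = 1.9e-09), and the hexose transporter gene Slc2a6 read 7.03, 3.69 and 5.23 against 38.3, 36.9 and 34 FPKM. Slc25a22, the mitochondrial glutamate carrier gene, read 2.79, 2.47 and 2.01 against 15.1, 12 and 13.4 FPKM, and Slc25a28, the mitochondrial iron importer gene, read 3.65, 3.22 and 3.08 against 12.6, 10.3 and 12.3 FPKM. Slc7a5, of the large neutral amino acid transporter, fell, at 29.9, 33.7 and 35.2 against 13.8, 21.4 and 19.1 FPKM (log2 change -0.85 ± 0.17, adjusted p = 0.00086). Trafficking Rab genes rose in 17 and fell in 8 of 53 cases (4 falls without PBS library 1), but 13 rose and 20 fell under scaling by total reads. The rises included Rab20 at 4.31, 3.08 and 4.43 against 13.6, 13 and 9.44 FPKM, Rab19 at 1.02, 1.15 and 0.835 against 5.47, 10.6 and 10.4 FPKM, Rab8b at 22.4, 24.7 and 22.5 against 71.3, 52.9 and 49.3 FPKM and the exchange factor gene Rab3ip at 6.91, 7.58 and 8.06 against 21.3, 21.2 and 22.3 FPKM.

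Several of the largest rises belonged to none of the lists. Besides Lipg and Ccrl2, Phf11b, an interferon-induced gene of a plant homeodomain protein, read 6.51, 4.48 and 3.85 against 113, 92.6 and 85.8 FPKM (log2 change 4.06 ± 0.28, adjusted p = 1.5e-08). Daxx, a histone chaperone gene, read 12.6, 9.64 and 8.38 against 166, 138 and 139.9 FPKM, and Nt5c3, of a cytosolic nucleotidase, read 5.89, 5.53 and 4.45 against 90.02, 65 and 70.3 FPKM. Mxd1, which opposes MYC at its binding sites, read 6.43, 6.99 and 6.93 against 109, 86.4 and 75.2 FPKM (log2 change 3.54 ± 0.11, adjusted p = 3.1e-12). Stx11, of a syntaxin used in cytotoxic granule release, read 1.7, 1.4 and 1.49 against 36.2, 24.4 and 20.5 FPKM, and Setdb2, of a histone H3 lysine methyltransferase, read 2.35, 2.76 and 1.8 against 40.8, 29 and 31.8 FPKM. In each of these 6 genes every cGAMP library lay above every PBS library, which the choice of genes required, and cGAMP library 1 was the highest.

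The largest falls were smaller than the largest rises on the log2 scale, and several were genes known from epithelium. Foxi1, a forkhead factor of ion-transporting epithelial cells, read 13.9, 9.1 and 9.66 against 0.761, 0.958 and 3.14 FPKM (log2 change -2.27 ± 0.28, adjusted p = 9.5e-06). G0s2, an inhibitor of adipose triglyceride lipase, read 12.5, 8.43 and 16.6 against 0.687, 1.91 and 3.97 FPKM (log2 change -2.18 ± 0.37, adjusted p = 0.0002). Tfap2c, a factor of mammary epithelium, read 16.8, 13.1 and 18.4 against 2.5, 6.49 and 7.57 FPKM, and Bhlha15, a factor of secretory cells also called MIST1, read 5.45, 4.23 and 5.3 against 0.513, 1.29 and 1.75 FPKM. Pinc, a non-coding RNA of the mammary gland, read 6.5, 2.31 and 6.14 against 0.555, 1.42 and 1.11 FPKM, and Oxtr, the oxytocin receptor, read 3.58, 2.43 and 3.23 against 0.15, 0.819 and 0.495 FPKM. Aqp7, an aquaglyceroporin gene by which the study names a subset of breast ECs, read 3.71, 3.19 and 4.4 against 0.296, 0.883 and 0.664 FPKM. Its mean PBS level was 3.77 FPKM in implanted, 4.24 in MMTV-PyMT and 32.6 in normal ECs. For Oxtr these levels were 3.08, 1.73 and 24.4 FPKM, and for Foxi1 they were 10.9, 40.1 and 6.95 FPKM. Slc28a3, a nucleoside transporter gene, read 25.5, 26.2 and 39.8 against 6.27, 9.9 and 12.7 FPKM. Eya2, a transcriptional coactivator, read 8.2, 6.63 and 6.11 against 0.686, 3.21 and 2.43 FPKM, and Zbtb16, which encodes the repressor PLZF, read 3.48, 5.52 and 8.26 against 0.928, 1.8 and 1.4 FPKM. Nrtn, which encodes the growth factor neurturin, read 8.37, 6.95 and 8.31 against 1.4, 1.98 and 3.96 FPKM.

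Mtss1 (23.1, 16.8 and 19.9 against 3.89, 8.23 and 7.31 FPKM) and Mtss2 (16.5, 16.6 and 15.5 against 3.78, 5.89 and 5.45 FPKM) encode membrane-bending proteins, and Zfp395 (24.8, 20.1 and 22 against 3.39, 7.86 and 11.3 FPKM), Klhdc7a (14, 7.28 and 10.4 against 0.934, 3.43 and 2.99 FPKM) and Gm42793 (4.27, 4.24 and 6.39 against 0.478, 1.23 and 1.1 FPKM) completed this set. In 16 of the 20 largest falls the lowest value was that of cGAMP library 1, where the epithelial sum was lowest and the endothelial sum highest, and the part of tumour cells in these falls was not tested. The other 4 were Exoc3l2, an exocyst-related gene of vessels, at 28.6, 30.03 and 22.9 against 7.12, 6.96 and 6.99 FPKM (log2 change -1.80 ± 0.22, adjusted p = 6.1e-06), Neurl1b, a ubiquitin ligase gene of Notch ligands, at 9.4, 15.1 and 10.5 against 3.12, 2.31 and 3.9 FPKM (log2 change -1.62 ± 0.16, adjusted p = 1.1e-06), Kif26a, an unconventional kinesin gene, at 14, 15.9 and 13.2 against 5.51, 2.56 and 4.43 FPKM, and Hecw2, a ubiquitin ligase gene, at 9.72, 12.6 and 12.3 against 3.04, 2.66 and 3.94 FPKM (log2 change -1.58 ± 0.17, adjusted p = 2.5e-06).

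**Figure D4:**
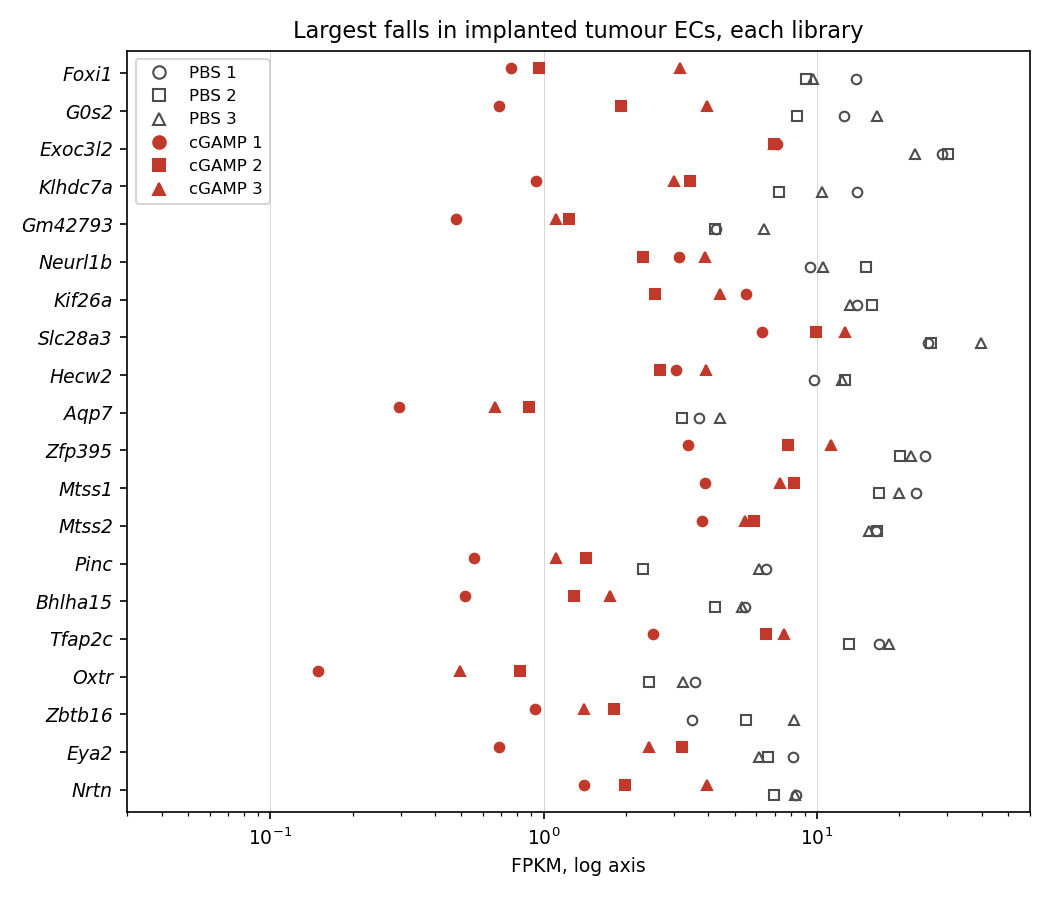
FPKM of the 20 largest falls in the 6 implanted libraries on a log axis, with 1 point for each library and PBS and cGAMP in separate colours. Every cGAMP point lies below every PBS point, which the choice of genes required, and in 16 genes the lowest point is cGAMP library 1.

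The effect of cGAMP in implanted ECs was then set against that in MMTV-PyMT ECs and normal ECs by the difference of the log2 changes in the same fit. The effect was higher in implanted ECs by at least 1 on the log2 scale for 258 genes (1.85%) and lower for 88 (0.629%) relative to MMTV-PyMT ECs. Relative to normal ECs it was higher for 524 (3.75%) and lower for 131 (0.937%). By adjusted p-value alone, 1026 effects were higher (7.34%) and 520 lower (3.72%) than in MMTV-PyMT ECs, and 1751 higher (12.5%) and 851 lower (6.09%) than in normal ECs. Of the genes named here, many of which were chosen by the size of their change, 63 differed by at least 1 on this scale and passed the test against MMTV-PyMT ECs, and 86 did so against normal ECs. Epithelial, fibroblast and leukocyte sums also differed among the implanted libraries, as given above, and their part in these differences was not tested.

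Mxd1, Il15, Prkcq and Ifit1bl1 responded more in implanted ECs than in both other tissues. Mxd1 changed by 3.54 in implanted, 0.93 in MMTV-PyMT and 0.79 in normal ECs, a difference of 2.61 ± 0.16 (SE, adjusted p = 2.7e-07) from MMTV-PyMT ECs. For Il15 the 3 changes were 3.53, 0.90 and 0.81. Prkcq, which encodes protein kinase C theta, read 0.665, 0.51 and 0.30 against 12.2, 8.06 and 9.49 FPKM and changed by 2.86, 0.53 and 0.11. Ifit1bl1 changed by 6.22, 3.45 and 3.37, with uncertain assignment of reads. Its mean FPKM went from 0.628 to 119 in implanted, 0.178 to 12.3 in MMTV-PyMT and 0.236 to 12 in normal ECs. These PBS means lay under 1 FPKM, where the log2(FPKM + 1) scale makes changes too small, so its differences between tissues depend on that scale. Nos2, the inducible nitric oxide synthase gene, read 16, 11.1 and 11.3 against 90.6, 73.4 and 51.8 FPKM and differed from MMTV-PyMT ECs by 2.13 ± 0.32 (SE, adjusted p = 0.00053). Irf5 differed from MMTV-PyMT ECs by 2.42 ± 0.28 (SE, adjusted p = 7.9e-05), and Ido1 by 2.70 ± 0.39 (SE, adjusted p = 0.0004). From normal ECs, Nos2, Irf5 and Ido1 differed by 1.96, 2.65 and 1.82. Gzmb, of the cytotoxic protease granzyme B, read 1.04, 0.629 and 0.846 against 8.41, 28 and 3.03 FPKM, highest in cGAMP library 2, and Ms4a6b, a gene of immune cells, read 1.12, 0.881 and 1.06 against 15.6, 15.2 and 9.98 FPKM. Both are genes of leukocytes by background, and the part of leukocytes in their differences and in that of Irf5 was not tested.

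Bmp2 had the largest difference from normal ECs, where it changed by 0.07 (difference 4.01 ± 0.40 SE, adjusted p = 1.1e-05). In MMTV-PyMT ECs Bmp2 changed by 2.28 (difference 1.79 ± 0.40 SE, adjusted p = 0.0086). Cd40 differed from normal ECs by 2.77 ± 0.34 (SE, adjusted p = 4.8e-05), Phf11b by 2.74 ± 0.40 (SE, adjusted p = 0.00024) and Il33 by 3.07 ± 0.35 (SE, adjusted p = 3e-05). From MMTV-PyMT ECs, Cd40, Phf11b and Il33 differed by 1.57, 2.11 and 1.71. Several genes responded less in implanted ECs. Cxcl9 changed by 2.66 in implanted and 5.30 in MMTV-PyMT ECs (difference -2.64 ± 0.43 SE, adjusted p = 0.0011). Its PBS level was 235 ± 47.9 FPKM (SD, n = 3) in implanted and 2.09 ± 0.305 in MMTV-PyMT ECs, and its cGAMP level was 1539 ± 599 and 124 ± 36.1, so implanted ECs had the higher level under both treatments. The immunity-related GTPases showed the same order, with Iigp1 at 1.98 and 4.62 (difference -2.64 ± 0.23 SE, adjusted p = 1.2e-05), Igtp at 2.51 and 4.94, Tgtp1 at 2.29 and 4.56, and Irgm2 at 2.28 and 4.46. Their mean PBS levels were also higher in implanted ECs, as for Iigp1 at 91.8 ± 15.7 against 10.2 ± 1.85 FPKM, and so were their mean cGAMP levels, at 363 ± 38.3 against 277 ± 56.3 for Iigp1. The median of the 14 genes of this GTPase list was 2.34 in implanted, 3.67 in MMTV-PyMT and 2.51 in normal ECs. Adamts4 rose by 1.59 against 3.32 in normal ECs (difference -1.73 ± 0.33 SE, adjusted p = 0.002). Slc7a5 and Zbtb16 fell in implanted ECs, and their changes in normal ECs were 0.93 and 0.40. These differed by -1.78 ± 0.24 (SE, adjusted p = 0.00012) for Slc7a5 and -1.86 ± 0.41 (SE, adjusted p = 0.0051) for Zbtb16. Exoc3l2 and Hecw2 fell in implanted ECs, with changes of 0.38 and 0.48 in MMTV-PyMT ECs. These differed by -2.18 ± 0.30 (SE, adjusted p = 0.00034) for Exoc3l2 and -2.06 ± 0.25 (SE, adjusted p = 9.8e-05) for Hecw2.

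**Figure D5:**
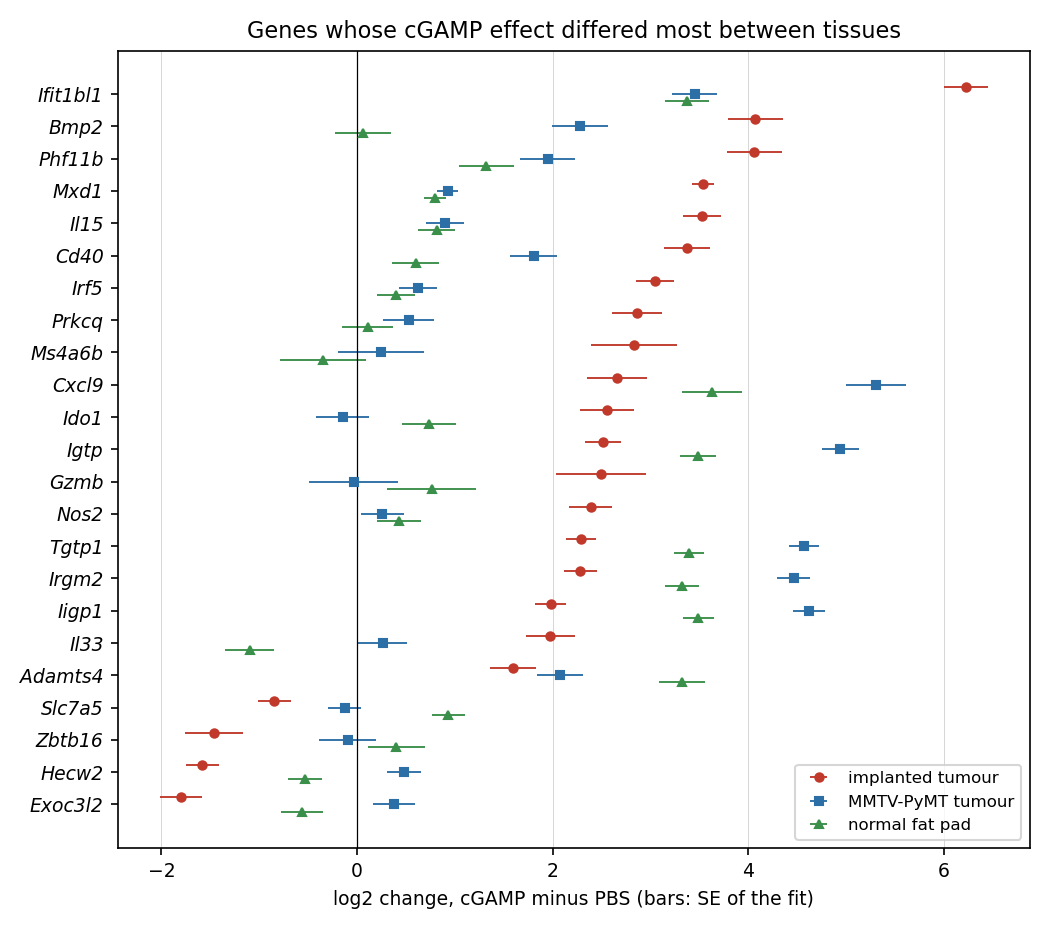
Log2 change with cGAMP in implanted, MMTV-PyMT and normal ECs for the genes with the largest differences in effect, with error bars of 1 SE from the fit (n = 3 libraries for each group). Bmp2 lies at 4.07 in implanted, 2.28 in MMTV-PyMT and 0.07 in normal ECs, and Cxcl9 at 2.66 in implanted and 5.30 in MMTV-PyMT ECs.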

How the data were processed

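ECs of implanted tumours were sequenced after cGAMP or PBS (3 libraries each), and the 12 other libraries of the series shared the fit. According to the study's methods, CD31 beads and flow sorting isolated the cells, libraries came from a directional kit (NEBNext Ultra II) and paired-end reads from a NextSeq. Per the submitters' processing notes, reads were checked with FastQC, aligned to mm10 with STAR 2.7 and counted with HTSeq, and use of the strand in counting is not given in the sources used here. The authors deposited 1 table of FPKM values for 16248 genes and 18 libraries, and the deposited values were used without rescaling. It holds 0 values at zero, so a gene outside the table was not analysed here. The 6 columns that name no tissue were taken as normal fat pad because both tumour types were named in the others. Columns with no matched sample numbered 0. Whole reads could be recovered for 100.0% of the genes (tolerance 0.02 reads), 9184658 to 12200551 per library over all 18, with no molecular identifiers, and these reads were used for the alternative with voom only. Replicates differed by more than sampling noise in a chi-square test of genes with at least 10 reads.

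Genes with FPKM of at least 1 in at least 3 libraries (13983) were tested as log2(FPKM + 1) with limma 3.58.1 in R 4.3.3, with 1 mean per group over 18 libraries, empirical Bayes with a trend, 2-sided, and Benjamini-Hochberg adjustment over all tested genes. Differences in effect between tissues came from the same fit, so all comparisons share that spread, and each tissue has its own PBS controls. The scripts were tested on simulated data. Named genes were the 20 largest rises and falls among called genes without overlap, the 10 largest of these in each direction on none of the lists, up to 6 members per list with the largest change, defining members that did not pass, and the 10 largest differences in effect either way, of which predicted genes (Gm), a snoRNA gene and Ramp3 are not described. Some genes and 1 list that the rule covers are not reported here. Lrrc8a, Ifnar1, H2-K1, B2m and the single marker genes were named after their values were seen. The genes and lists were chosen with earlier results of these data known. Members of families with close copies, and genes that overlap another, have uncertain reads. Promoters were searched as text with Python 3.11.15. Alternatives were another pseudocount, filter, scaling or count model, the implanted libraries alone, a replicate block and each library left out.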

Additional observations from a re-analysis of the deposited data

Results flagged for a closer look

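The effect of cGAMP in implanted ECs differed from that in another tissue in the interaction term of the limma fit (Benjamini-Hochberg adjustment) for the following genes, chosen as the largest differences in each direction among the named genes. Each value is the log2 change in implanted ECs minus the log2 change in the other tissue, over 3 libraries in each group. Against MMTV-PyMT ECs the effect was higher for Ifit1bl1 (2.77, adjusted p = 8.7e-05), Ido1 (2.70, adjusted p = 0.0004), Il15 (2.63, adjusted p = 4.2e-05), Mxd1 (2.61, adjusted p = 2.7e-07), Ms4a6b (2.59, adjusted p = 0.013), Gzmb (2.53, adjusted p = 0.018), Irf5 (2.42, adjusted p = 7.9e-05), Prkcq (2.33, adjusted p = 0.00084) and Nos2 (2.13, adjusted p = 0.00053). It was lower for Cxcl9 (-2.64, adjusted p = 0.0011), Iigp1 (-2.64, adjusted p = 1.2e-05), Igtp (-2.43, adjusted p = 4.5e-05), Tgtp1 (-2.28, adjusted p = 3.0e-05), Exoc3l2 (-2.18, adjusted p = 0.00034), Irgm2 (-2.18, adjusted p = 5.6e-05) and Hecw2 (-2.06, adjusted p = 9.8e-05). Against normal ECs the effect was higher for Bmp2 (4.01, adjusted p = 1.1e-05), Ms4a6b (3.17, adjusted p = 0.0022), Il33 (3.07, adjusted p = 3.0e-05), Ifit1bl1 (2.85, adjusted p = 2.7e-05), Cd40 (2.77, adjusted p = 4.8e-05), Prkcq (2.75, adjusted p = 0.00012), Mxd1 (2.74, adjusted p = 1.3e-07), Phf11b (2.74, adjusted p = 0.00024) and Il15 (2.71, adjusted p = 1.0e-05). It was lower for Zbtb16 (-1.86, adjusted p = 0.0051), Slc7a5 (-1.78, adjusted p = 0.00012) and Adamts4 (-1.73, adjusted p = 0.002). Leukocyte and fibroblast marker sums were highest in implanted cGAMP library 2, and their part in the differences of Gzmb, Ms4a6b, Irf5 and Il33 was not tested. Reads of Ifit1bl1, Tgtp1, Irgm2 and Iigp1 may be split with close copies. The PBS means of Ifit1bl1 lay under 1 FPKM in each tissue, where the log2(FPKM + 1) scale makes changes too small. Groups of 3 libraries are too small for a formal test of single outlying libraries, and counts with single libraries left out are given below.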

How the results depend on the processing

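Of 204 named genes, 198 passed the test and 196 of these retained their direction and an adjusted p-value under 0.05 in every alternative in which they were tested. H2-K1 and B2m no longer passed in at least 1, and 0 reversed. Of 153 named genes called at 2-fold, 19 lost that call in at least 1 alternative, among them 16 with scaling by total reads (such as Tmem173, Timp1 and Atf6), 11 with quantile normalisation and up to 6 with 1 implanted library left out. Of the 6 that did not pass, Ifitm2 turned to −0.26 with quantile normalisation and −0.080 with scaling by total reads, and Ifi27 ranged from −0.087 to 0.024 when single replicates were left out. Ifitm2 passed as a rise in 5 other alternatives and as a fall with quantile normalisation, Ifi27 passed as a fall with quantile normalisation and total reads, and Irf3 did so with total reads. H2-Ab1 passed without normal cGAMP library 1, and Sele without cGAMP library 2, MMTV-PyMT PBS library 1 or normal cGAMP library 1. Genes called higher numbered 857, and 552 with scaling by total reads or 2841 by adjusted p-value alone. Genes called lower numbered 153, and 544 with a pseudocount of 0.1, 433 with scaling by total reads, 587 with voom on recovered reads and 2623 by adjusted p-value alone. With single replicates left out the counts ranged from 775 to 978 and from 127 to 216. Effects higher than in MMTV-PyMT ECs (258) numbered 168 with a mean FPKM of at least 5, 143 with total reads and 1026 by p-value alone. Lower effects (88) numbered 54, 157 and 520 under these, and 215 with a pseudocount of 0.1 and 215 with voom. Effects higher than in normal ECs (524) numbered 254 with total reads and 1751 by p-value alone. Lower effects (131) numbered 82 with a mean FPKM of at least 5, 308 with a pseudocount of 0.1, 205 with quantile normalisation, 373 with total reads, 312 with voom and 851 by p-value alone. The cause of these moves was not tested, apart from the larger number of genes that p-values alone admit. The ratio of leukocyte marker levels in cGAMP library 2 to the mean of the other cGAMP libraries was 2.39 by summed FPKM and 4.82 by the median over markers. A replicate block gave 849 calls higher and 150 lower. Same-numbered implanted libraries correlated at −0.17, −0.29 and 0.027 in their deviations from the group means, and unlike-numbered ones at −0.13 to 0.29. With means of only 3 libraries, these values cannot decide whether the numbers pair the samples. Of 1378 list medians under alternatives, 90 moved by more than the spread. The number of falls called rests on the 2-fold limit and the pseudocount, and genes with few reads carry counting error that FPKM values do not show.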

Other observations

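Markers of further cell types were summed in the implanted libraries, with no comparison attached. Mural cell markers (10 genes) summed to 294, 333 and 318 in PBS libraries 1 to 3 and 557, 397 and 251 in cGAMP libraries 1 to 3, and cGAMP library 1 was the highest of the 6. Lymphatic endothelial markers (4 of 6 listed) summed to 15.4, 25.4 and 17.9 in PBS libraries 1 to 3 and 51.9, 17.3 and 24.8 in cGAMP libraries 1 to 3, again highest in cGAMP library 1. Platelet markers (3 of 6 listed) summed to 2.65, 2.63 and 2.55 in PBS libraries 1 to 3 and 10.03, 5.35 and 5.53 in cGAMP libraries 1 to 3, with every cGAMP library above every PBS library. Erythroid markers (4 of 6 listed) summed to 8.12, 19.7 and 18.9 in PBS libraries 1 to 3 and 24.5, 12.1 and 18.7 in cGAMP libraries 1 to 3. Of 6 adipocyte markers, 0 were in the table. Of 7 genes of the mitochondrial genome, 2 rose and 0 fell (median log2 change 0.23). Heat shock genes rose in 1 and fell in 2 of 13 cases, with 5 falls without PBS library 1.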
